A study of Homo sapiens with 6 samples.

Results

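Ribosomal protein pseudogenes are genomic copies of the genes for the proteins of the ribosome. The deposited table lists 1144 genes that had a symbol of this kind (RPL or RPS, a number, P and a further number) and a pseudogene biotype. Members were selected on their level: 81 of the 1144, from 58735 genes listed in all, reached a mean of at least 1 FPKM (fragments scaled to gene length and to library total) over the 6 libraries. Of the other matches, 709 were listed at 0 in every library and 354 lay above 0 and below 1. The parent of a member is the gene whose symbol stands before its last P and number, so that RPS28 is the parent of RPS28P7. The 81 members had 42 different parents, of which 30 encode proteins of the large subunit and 12 proteins of the small subunit. By biotype 72 members were processed pseudogenes, 7 were transcribed processed and 2 were transcribed unprocessed. Because members were chosen by level, their levels are a description only.

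Most ribosomal protein pseudogenes are retrocopies, made when a spliced messenger RNA of the parent was reverse-transcribed and inserted elsewhere in the genome. A retrocopy therefore has no introns and at first carries the coding sequence of its parent unchanged, and it then collects base changes over time. Ribosomal protein messenger RNAs are among the most abundant in dividing cells, and their genes have given rise to more retrocopies than most others. Because a young retrocopy is nearly identical to its parent, a short sequenced fragment can match both loci, and the count given to each depends on how such fragments were assigned. In these data the read mapper, the counter and the genome are named in the sources, while the handling of fragments with several matches and the strand setting of the counter are not given in the sources used here.

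The samples were 6 RNA libraries of HCT116, an established human colorectal cancer cell line, here wild type. The 3 CTR libraries came from control-transfected cells, and the 3 miR-8485 libraries came from cells transfected with 50 nM of a mimic of the microRNA miR-8485 and, by the study's methods, collected 48 h later. All libraries came from the same line, which carries no engineered allele, and the study's methods describe the replicates as biologically independent. The epithelial markers EPCAM, KRT8, KRT18, KRT19 and CDH1 lay at 18.7 FPKM or more in every library, while fibroblast, immune and endothelial markers lay at or under 0.202 FPKM with the exception of COL1A1, at 4.25 FPKM in CTR and 6.31 in miR-8485. The listed genes held between 17473874 and 18480047 fragments per library. CTR replicate 1 stood apart from the other controls for the members. The median member in it lay 0.18 above the CTR mean on the log2 scale, against -0.085 and -0.093 in CTR replicates 2 and 3, and results that turn on this library are given without it as well.

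The sequences that carry the comparison with the parents are printed here in hg38, 5′ to 3′ on the strand of the pseudogene. The first pair shows copies that cannot be told from the parent's coding sequence. RPS28P7 (chr11:82689559-82689765, plus strand) matched all 207 coding bases of RPS28, and RPL39P3 (chr6:73373111-73373263, minus strand) matched all 153 coding bases of RPL39, so neither has a capital.
RPS28P7: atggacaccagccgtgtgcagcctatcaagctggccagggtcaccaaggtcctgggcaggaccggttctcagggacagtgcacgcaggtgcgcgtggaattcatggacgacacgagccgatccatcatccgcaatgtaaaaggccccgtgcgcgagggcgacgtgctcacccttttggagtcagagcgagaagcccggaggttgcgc
RPL39P3: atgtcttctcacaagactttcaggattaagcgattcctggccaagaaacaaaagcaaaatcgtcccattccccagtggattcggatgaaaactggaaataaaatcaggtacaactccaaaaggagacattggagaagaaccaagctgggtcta
The next sets show the first 240 aligned columns for members that differ from the parent, with every base that differs in capitals. RPS2P5 (chr12:118246084-118246323, plus strand), the second most abundant member, differed from RPS2 at 2 of the first 240 coding bases.
RPS2P5: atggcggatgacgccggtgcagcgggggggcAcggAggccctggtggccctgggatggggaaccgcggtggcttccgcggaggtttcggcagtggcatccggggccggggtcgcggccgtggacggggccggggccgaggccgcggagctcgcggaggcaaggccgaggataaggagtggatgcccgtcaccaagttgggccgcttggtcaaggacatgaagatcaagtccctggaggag
RPS2: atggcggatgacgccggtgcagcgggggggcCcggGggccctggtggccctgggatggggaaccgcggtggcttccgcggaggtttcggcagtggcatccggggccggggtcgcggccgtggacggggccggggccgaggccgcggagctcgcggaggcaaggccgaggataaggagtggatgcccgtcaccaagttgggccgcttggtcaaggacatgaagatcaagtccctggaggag
RPL10P13 (chr12:75688865-75689096, minus strand) held only a part of RPL10, and the stretch shown aligned with coding bases 328 to 567 with 8 mismatched bases and a gap of 8 bases.
RPL10P13: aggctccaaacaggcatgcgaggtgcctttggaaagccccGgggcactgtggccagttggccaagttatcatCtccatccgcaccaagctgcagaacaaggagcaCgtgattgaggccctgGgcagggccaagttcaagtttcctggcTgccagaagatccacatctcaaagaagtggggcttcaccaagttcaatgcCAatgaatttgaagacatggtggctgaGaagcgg
RPL10: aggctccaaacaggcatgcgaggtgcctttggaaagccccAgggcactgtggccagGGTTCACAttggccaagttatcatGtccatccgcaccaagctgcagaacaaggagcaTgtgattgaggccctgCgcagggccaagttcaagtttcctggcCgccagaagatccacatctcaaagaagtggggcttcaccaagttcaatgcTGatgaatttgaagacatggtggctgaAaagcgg
RPL24P8 (chr9:70217197-70217436, plus strand) differed from RPL24 at 11 of the 240 bases shown, which are coding bases 3 to 242.
RPL24P8: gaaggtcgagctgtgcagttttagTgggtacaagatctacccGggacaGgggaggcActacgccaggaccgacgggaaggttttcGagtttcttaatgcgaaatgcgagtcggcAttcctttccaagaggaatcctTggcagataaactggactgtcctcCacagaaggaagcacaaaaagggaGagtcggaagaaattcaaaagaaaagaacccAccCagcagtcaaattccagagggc
RPL24: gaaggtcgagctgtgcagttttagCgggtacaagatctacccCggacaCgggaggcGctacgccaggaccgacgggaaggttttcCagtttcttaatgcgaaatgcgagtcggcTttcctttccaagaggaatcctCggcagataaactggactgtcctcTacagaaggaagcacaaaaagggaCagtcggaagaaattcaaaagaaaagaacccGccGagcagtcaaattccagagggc
RPL7P50 (chr19:6593329-6593568, plus strand) differed from RPL7 at 13 of 240 bases, and only the pseudogene is shown.
RPL7P50: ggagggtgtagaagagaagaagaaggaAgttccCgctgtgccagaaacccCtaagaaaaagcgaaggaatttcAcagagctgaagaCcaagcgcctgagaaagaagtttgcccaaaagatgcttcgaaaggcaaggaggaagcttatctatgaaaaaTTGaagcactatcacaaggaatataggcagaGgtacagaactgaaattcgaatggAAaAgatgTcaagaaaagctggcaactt

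The members spanned a range from 1.06 to 2131 FPKM, with a median of 6.96. Abundance was concentrated in a few of them. RPS28P7 alone held 28.7% of the summed FPKM of all members in CTR, 16 members lay at or above 100 FPKM, and 33 members rested on fewer than 50 fragments per library on average. RPS28P7 is a copy of RPS28, a small protein of the small subunit that lies near the channel through which messenger RNA leaves the ribosome. Its values were 1838, 1609 and 1578 FPKM in CTR and 2766, 2517 and 2476 FPKM in miR-8485. The groups did not overlap, and the highest control was CTR replicate 1. RPS2P5 copies RPS2, a small-subunit protein near the channel by which messenger RNA enters, and its values were 598, 547 and 553 FPKM in CTR and 1032, 885 and 891 FPKM in miR-8485. RPL39P3 copies RPL39, a very short protein that lines the exit tunnel for the growing peptide, and it measured 458, 361 and 341 FPKM in CTR and 765, 773 and 658 FPKM in miR-8485. The lowest miR-8485 library lay above the highest control for both of these members. The plot of 9 of the 10 most abundant members shows that the same held for 8 of them, with RPL41P1 as the exception. Over all genes with a mean of at least 1 FPKM it held for 32.5%.

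**Figure D1:**
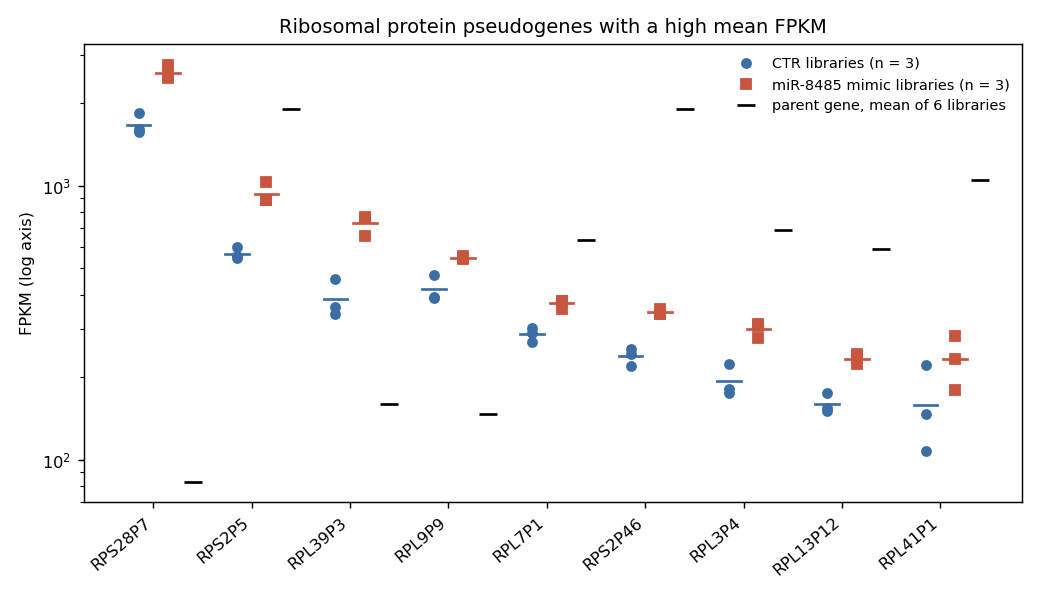
FPKM per library (log axis) of 9 of the 10 most abundant ribosomal protein pseudogenes in the CTR (circles, n = 3) and miR-8485 (squares, n = 3) libraries, with coloured lines at the group means and a black dash at the parent's mean over 6 libraries. RPS28P7, RPL39P3 and RPL9P9 lie above their parents, and the groups of RPL41P1 overlap.

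The means over 6 libraries put 6 members above their own parent in FPKM. They were RPS28P7 (2131 against 83.3 FPKM for RPS28), RPL39P3 (559 against 159), RPL9P9 (483 against 147), RPS7P1 (163 against 138), RPL26P19 (32.4 against 20.7) and RPS10P3 (5.18 against 1.35). The order of levels within a pair depends on the length used for the parent. The deposited length of RPS28 is 2119 bases, the union of its annotated exons, against 210 bases for RPS28P7, and FPKM divides by this length. On fragments, which are not divided by length, RPS28P7 was the single member with more than its parent, at 253% of the RPS28 fragments, while RPL9P9 had 47.0% and RPL39P3 had 25.6% of the fragments of their parents. RPS10 shares 730 exon bases with the readthrough gene RPS10-NUDT3, and RPS10 itself held a mean of 58 fragments per library. At the other end, 26 members lay under 1% of their parent's FPKM.

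Members were close copies. Aligned with the coding sequence of the parent's MANE Select transcript (the agreed reference transcript of a gene), they were identical at a median of 98.2% of aligned positions, with quartiles of 95.8% and 99.1%. Among the matches of the same symbol pattern whose parents also have a member, the median was 91.0% for 266 genes above 0 and below 1 FPKM, and 88.0% for 491 genes at 0. An identity of at least 98% was found for 45 of 81 members, for 9 of 266 of the matches above 0 and below 1 FPKM, and for 5 of 491 of those at 0. Across the 81 members the level and the identity had a Spearman rho of 0.74, given as a description, since members of one parent share sequence and all share libraries. The abundance of a pseudogene's own RNA and the number of parental fragments assigned to it cannot be told apart here.

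**Figure D2:**
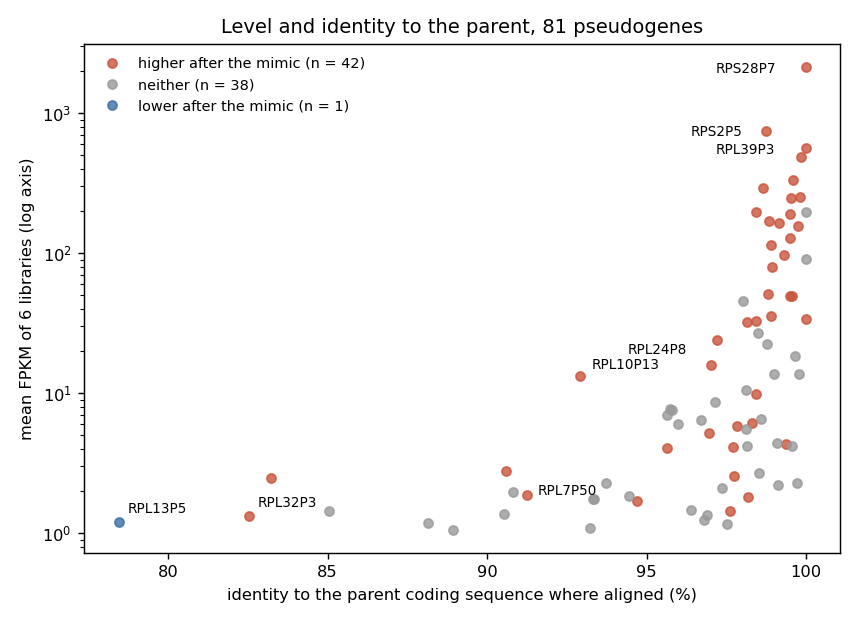
Mean FPKM over 6 libraries (log axis) against identity to the parent's coding sequence where aligned (percent) for the 81 members, coloured by the result of the test of the mimic. The members at or above 100 FPKM sit at identities of 98.4% or more, and the 6 members under 90% identity lie under 5 FPKM.

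The 5 members identical to the parent wherever aligned were RPS28P7, RPL39P3, RPL21P16, RPL41P1 and RPL41P5. RPL41P1 and RPL41P5 copy RPL41, the shortest ribosomal protein, and are 81 and 78 bases long. RPL9P9 (chromosome 15), a copy of the large-subunit gene RPL9, had 1 mismatched base over the whole coding sequence. RPL3P4 (chromosome 14) holds 34.7% of the coding sequence of RPL3, a protein beside the peptidyl transferase centre, and is 99.5% identical over that part. The 6 members under 90% were RPL39P40, RPL23AP53, RPL23AP64, RPL26P30, RPL32P3 (82.5%) and RPL13P5 (78.4%). Stretches of 100 bases were counted within GENCODE 44 exons, or within the deposited locus for RPSAP58, which is not listed there. By this count 20 members had no stretch that occurs in any annotated transcript of the parent. A further 42 had between 50% and under 100% of their stretches free of such a match, and 17 had under 50%. Their median levels were 1.85, 6.47 and 97.4 FPKM in that order. The parents carried the same ambiguity. Every 100-base stretch of the coding sequences of RPL21, RPL39, RPS26 and RPS28 occurs again elsewhere in hg38, and RPS28P7 or RPL39P3 is one place where the stretches of their parents recur.

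After the mimic, 42 of 81 members rose and 1 fell at an adjusted p under 0.05 (limma on log2(FPKM + 0.1), Benjamini-Hochberg over 12349 genes), and 38 did neither. Among all genes tested 29.1% rose and 30.5% fell. The median log2 fold change of the members was 0.43, against -0.0041 for all genes tested, and 71 of 81 members had a value above 0. In 42 members every miR-8485 library lay above every CTR library, and in 1 every one lay below, against 32.5% and 34.0% of all genes tested. The large and small subunits gave similar counts, with 29 of 56 members of large-subunit parents and 13 of 25 members of small-subunit parents called higher. The limit of 1 FPKM was on the mean of both groups, and 9 members reached it through 1 group alone. RPL7P50, RPL24P2, RPL32P3, RPL38P4, RPL39P40 and RPSAP9 passed through the miR-8485 libraries, with a CTR mean under 1 FPKM, and the first 3 of these are among the 42. RPL13P5, RPS3AP5 and RPL23AP53 passed through CTR, and RPL13P5 is the member called lower. Of the 72 members at or above 1 FPKM in both groups 39 were called higher. The 487 other pseudogenes tested had 126 higher, 60 lower and a median of 0.14.

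The count depended on depth. All 16 members with at least 1000 fragments per library were called higher, with log2 fold changes between 0.19 and 0.93. So were 10 of the 33 members under 50 fragments (30.3%), against 29.1% of all genes tested at any depth. The share among all genes with at least 1000 fragments was not taken, so the 16 have no share of like depth beside them. At or above 5 FPKM 31 of 48 members rose and none fell by limma, with 0 lower at an unadjusted p under 0.05 and 0 by voom. Below 5 FPKM 11 of 33 rose (33.3%, near the 29.1% of all genes tested) and 1 fell. Without CTR replicate 1, 51 members were called higher and the median log2 fold change was 0.53. Rescaled to TPM (transcript shares of a common total), the median over all genes moved to -0.12 and 31 members were called higher. The members' median stayed 0.44 above that of all genes, the same gap as on the FPKM scale. This rescaling multiplies all genes of a library by 1 factor, so apart from the added 0.1 it could not change the gap.

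Among the 10 most abundant members, 9 rose, against 29.1% of all genes tested at any level. The share among genes of like abundance was not taken. The log2 fold change was 0.63 for RPS28P7 (SE 0.075, limma adjusted p = 0.000294), 0.72 for RPS2P5 (SE 0.071, adjusted p = 0.000118) and 0.93 for RPL39P3 (SE 0.12, adjusted p = 0.000368). With quantile normalization, which fits all libraries to one distribution, the values of RPS28P7 and RPS2P5 were 0.24 and 0.45, both still called higher. RPL9P9 had 0.39 and RPL7P1, a copy of the large-subunit gene RPL7, had 0.37. RPS2P46, a further copy of RPS2, had 0.53. RPL3P4 had 0.64 and RPL13P12, a copy of RPL13, had 0.55. RPL41P1 did not pass the limma test. Its values were 222, 108 and 147 FPKM in CTR and 180, 284 and 234 FPKM in miR-8485, which gave 0.59 on the log2 scale with an SE of 0.26 and an adjusted p of 0.090 by limma. Its adjusted p was 0.00917 by limma-voom on recovered fragments and 0.0116 by limma without CTR replicate 1, its highest control. Its log2 fold change was 0.34 without CTR replicate 2.

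Summed over members, the level was 5844 ± 536 FPKM in CTR and 8700 ± 345 FPKM in miR-8485 (SD, n = 3), a 1.49-fold difference. The parents summed to 14220 ± 834 FPKM and 20058 ± 532 FPKM, a 1.41-fold difference. Members took 0.303% ± 0.026 of the fragments of a CTR library and 0.439% ± 0.013 of those of a miR-8485 library. Of the fragments given to members and parents together, the members had 6.17% ± 0.13 in CTR and 6.40% ± 0.081 in miR-8485. For each of these sums and shares the groups did not overlap and the exact two-sided permutation test gave p = 0.1, the smallest value that 3 against 3 libraries allow.

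The parents moved in the same direction. Of 42 parents 38 were called higher and none lower by limma (0 at an unadjusted p under 0.05, 0 by voom), with a median log2 fold change of 0.43, and the 43 ribosomal protein genes without a member had 40 higher and a median of 0.51. The parents that did not pass were RPL21 (0.21), RPL23A (0.04), RPL38 (0.13) and RPS10 (0.28, adjusted p = 0.16 by limma, with every miR-8485 library above every control). Across all 81 members the log2 fold changes of member and parent had a Spearman rho of 0.43, and across the 16 members with at least 1000 fragments it was 0.68. These are descriptions, since members share parents and libraries and a fragment of one locus may be counted at the other.

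The difference between a member and its parent was tested library by library, on log2(FPKM + 0.1) of the member minus that of the parent, with p-values adjusted over all 273 pseudogene and parent pairs in the table with both genes tested. Only RPL10P13 among the 81 members changed differently from its parent, against 1.1% of all pairs above the parent and 0.0% below. Over the members the median difference was 0.0052, with quartiles of -0.13 and 0.17, and the median SE of a single difference was 0.18, so that shifts of this size were not resolved for most pairs. At an unadjusted p under 0.05 there were 16 of 81 members, 8 of them below the parent, against 18.3% of all pairs. A weighted fit to recovered whole fragments (limma-voom) called 7 member pairs, against 6.59% of all pairs above and 1.1% below. RPL10P13, RPL7P50 (2.08), RPL39P3 (0.38), RPS27AP16 (0.35) and RPL6P27 (0.26) were above the parent by it, and RPL13P5 (-1.19) and RPL13AP20 (-0.77) were below. RPS27AP16, RPL6P27 and RPL13AP20 are named because of these values.

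**Figure D3:**
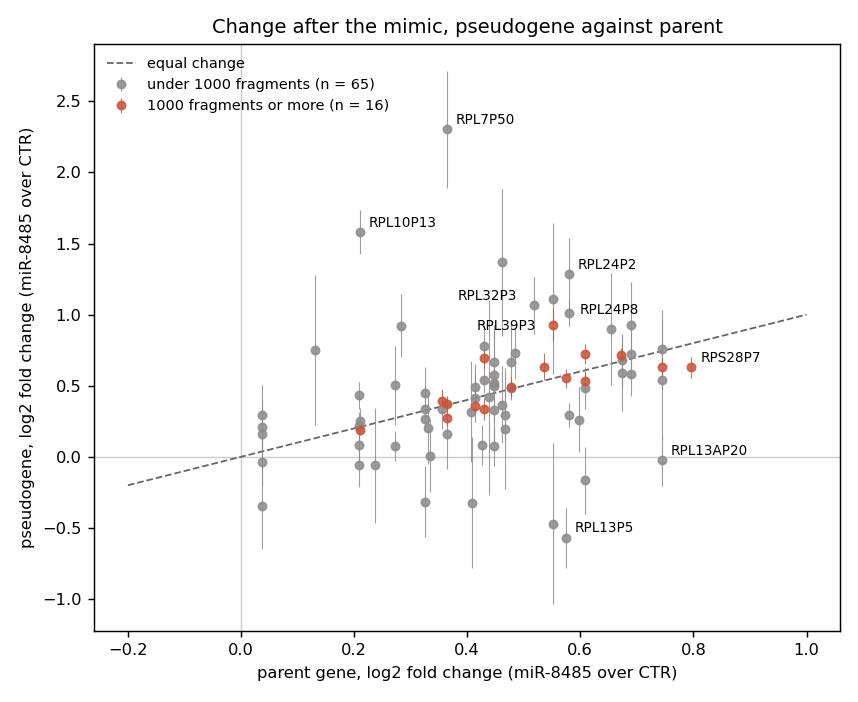
Log2 fold change (miR-8485 over CTR) of each pseudogene, with its SE, against that of its parent (no error shown). Dashed line, equal change. Red points are the 16 members with at least 1000 fragments per library, which lie between 0.19 and 0.93, and RPL7P50 and RPL10P13 lie highest above the line.

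RPL10P13 is the member that departed most clearly from its parent. RPL10 joins the large subunit late in its assembly. RPL10P13 measured 5.13, 7.66 and 7.11 FPKM in CTR and 17.3, 22.4 and 19.9 FPKM in miR-8485, from 28, 42 and 39 fragments and 94, 123 and 115 fragments. The lowest miR-8485 library lay well above the highest control. RPL10 measured 272, 252 and 266 FPKM in CTR and 312, 301 and 300.4 FPKM in miR-8485. On the log2 scale RPL10P13 rose by 1.58 (SE 0.16, limma adjusted p = 0.000122) and RPL10 by 0.21, a difference of 1.37 (SE 0.20, adjusted p = 0.0306 by limma over all pairs). Leaving out single libraries, the difference ranged from 1.18 to 1.52, and its adjusted p was above 0.05 without CTR replicate 2 (0.0646) or 3 (0.143) and without miR-8485 replicate 1 (0.0687), 2 (0.155) or 3 (0.125). None of its 100-base stretches occurs in a transcript of RPL10, as the printed mismatches and the 8-base gap show in part. RPL10P16 and RPL10P9, the other copies of RPL10, were 98.9% identical to RPL10 and had log2 fold changes of 0.19 and 0.25, both called higher. The call of RPL10P16 was lost on the TPM scale (0.076, adjusted p = 0.218 by limma) and with quantile normalization (0.11, adjusted p = 0.0876).

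The highest fitted value was that of RPL7P50, a diverged copy of RPL7 at 91.2% identity that passed the level limit only through the miR-8485 libraries, so that its rise was favoured by the selection. It measured 0.687, 0.228 and 0.912 FPKM in CTR and 3.60, 2.28 and 3.47 FPKM in miR-8485, from 9, 3 and 12 fragments and 47, 30 and 48 fragments. Its log2 fold change was 2.30 (SE 0.41, limma adjusted p = 0.00219), against 0.36 for RPL7, and the difference of 1.94 (SE 0.44) had an adjusted p of 0.0828 over all pairs by limma. With a pseudocount of 1 its log2 fold change was 1.36. RPL24 forms a bridge between the ribosomal subunits, and it had 3 members, all called higher, of which RPL24P2 passed the level limit only through the miR-8485 libraries. RPL24P2 measured 0.701, 0.815 and 1.4 FPKM in CTR and 1.99, 2.44 and 2.87 FPKM in miR-8485, a rise of 1.28 on the log2 scale (SE 0.26) from under 30 fragments in every library (0.81 with a pseudocount of 1). RPL24P8 measured 11.6, 10.7 and 9.33 FPKM in CTR and 21.4, 23 and 19.7 FPKM in miR-8485, a rise of 1.01 on the log2 scale (SE 0.091). The third, RPL24P4, is 98.4% identical to RPL24 over 81.5% of its coding sequence and had 0.29. RPL24 itself had 0.58, and none of the 3 copies differed from it in the test over pairs.

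RPL32P3, a transcribed unprocessed pseudogene of RPL32, measured 0.862, 0.933 and 0.662 FPKM in CTR and 1.74, 1.55 and 2.19 FPKM in miR-8485. Its log2 fold change was 1.07 (SE 0.20, limma adjusted p = 0.00273), or 0.63 with a pseudocount of 1, against 0.52 for RPL32. It too passed the level limit only through the group in which it is high. RPL13P5 was the member called lower, and it passed only through CTR, where it is high. It measured 1.80, 1.27 and 1.27 FPKM in CTR and 0.906, 1.12 and 0.795 FPKM in miR-8485, which gave -0.57 on the log2 scale (SE 0.21) with an adjusted p of 0.0493 by limma, while RPL13 rose by 0.57. The call was lost in 5 of the 6 fits that left out 1 library, with adjusted p between 0.0621 and 0.151 by limma, and it held without miR-8485 replicate 2. The adjusted p of its difference from RPL13, -1.14 (SE 0.24), was 0.082.

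By family, the counts of members called higher were 3 of 3 for RPL10 and RPL24, 3 of 4 for RPL7 and RPS2, 3 of 5 for RPSA (a small-subunit protein also known as a laminin receptor), 2 of 3 for RPS7 and 2 of 4 for RPL13A. They were 1 of 3 for RPL39, 1 of 4 for RPS3A and RPL21 and 1 of 5 for RPL23A. Among all genes tested 29.1% rose, and these last counts lie near that share. The counts for RPL24 and RPL7 include RPL24P2 and RPL7P50, which passed the level limit only through the miR-8485 libraries. RPL23A, a protein at the exit of the peptide tunnel, and RPL21 are parents that did not pass the test themselves. In the RPS2 family the members' log2 fold changes ran from -0.16 to 0.72. The most abundant, RPS2P5, had the highest value, and the 1.24-FPKM copy RPS2P7 had the lowest. Members of RPL13A ran from -0.02 to 0.76, and those of RPL23A from -0.35 to 0.29.

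Many members lie inside other genes. In GENCODE 44, 34 of 81 lay within introns of another gene without sharing its exons, 23 of them in a protein-coding gene and 16 on the same strand as the host, and 38 had no other gene over them. A tested host was found for 15 members, one of them with 2 hosts. In 12 of these 16 placements the member's log2 fold change was nearer to that of its parent than to that of its host. This count takes no account of the SE, which was 0.69 for RPL29P11 and 0.25 for RPL7P23. Member and parent may also share fragments, so nearness to the parent is no test of the host. RPS2P5 rose opposite to TAOK3, which fell by 0.39, and RPL21P28 rose by 0.43 opposite to DTL, which fell by 0.86. RPL21P28 held a mean of 38 fragments per library, and limma-voom did not call it (adjusted p = 0.176). The members in the other 4 placements were RPL23AP64 and RPL7P23, which did not pass the test, and RPL7P50 and RPL10P13. RPL7P50 lies opposite to CD70, a TNF family ligand, which measured 1.28 ± 0.22 FPKM in CTR and 5.15 ± 0.27 FPKM in miR-8485 (SD, n = 3) and so rose by 1.94 on the log2 scale. RPL10P13 lies in an intron and on the strand of a long non-coding RNA (ENSG00000258077) that measured 3.52 ± 0.55 and 6.46 ± 0.59 FPKM (SD, n = 3) and so rose by 0.87. RPL24P8 lies on the strand of MAMDC2, which was at 0.775 and 0.838 FPKM, under the filter, and opposite to SMC5-DT, which was at 0.0101 FPKM in CTR and 0.19 FPKM in miR-8485, a change of 1.4 on the log2 scale (adjusted p = 0.0106 by limma without the filter). The part of host transcripts in the counts of these members was not tested, and without a stated strand setting RNA from either strand cannot be told apart.

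**Figure D4:**
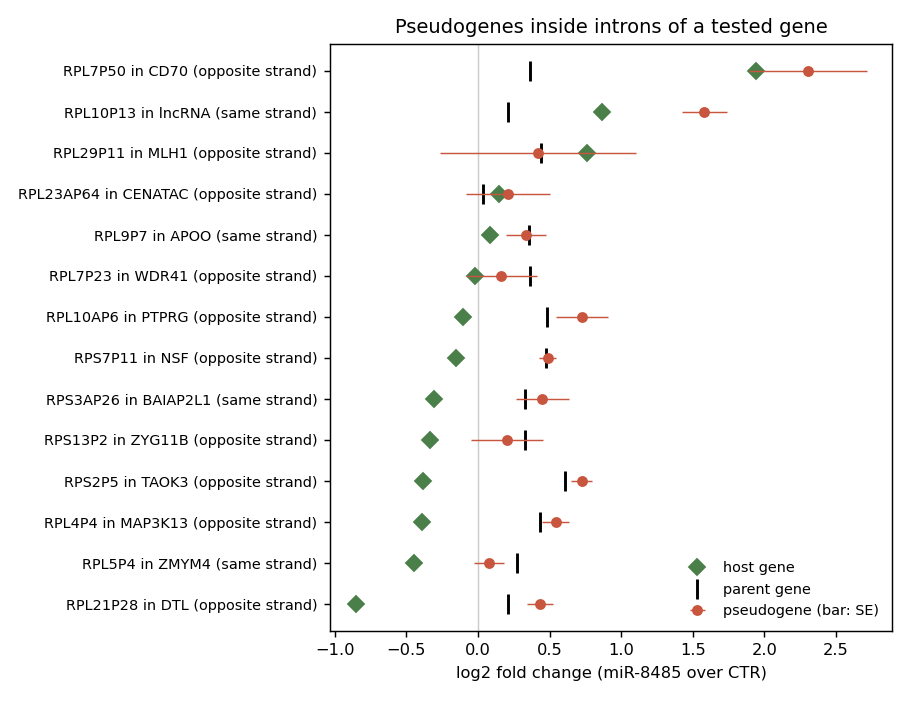
Log2 fold change (miR-8485 over CTR) of members inside introns of a tested gene (circles, with SE), of the host (diamonds) and of the parent (ticks), ordered by host, for 14 of these members. RPL7P50 and RPL10P13 at the top lie nearer to the host, and those at the bottom lie near the parent while the host is below 0.

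In 12 members exon bases are shared with another gene. RPL13P5 shares 561 of its 1783 bases with LRRC23 on its own strand and 228 bases with SPSB2 on the opposite strand, and both of these rose, by 0.43 and 1.0 on the log2 scale, while RPL13P5 fell. RPL32P3 has 275 exon bases in GENCODE 44, of which 270 are shared with the long non-coding RNA ENSG00000290993, which is not used here. Its values rest on a deposited length of 4504 bases, most of it outside those exons. RPL32P3 lies next to IFT122P2, which rose by 1.37. RPSAP58 lies wholly within RPSA2, a gene that GENCODE 44 lists as protein-coding, and rose by 0.33 at 49.6 FPKM, a call that was lost on the TPM scale (0.21, adjusted p = 0.0967 by limma). RPL23AP82 shares all 469 of its GENCODE 44 exon bases with the GENCODE 44 long non-coding gene RPL23AP7, against a deposited length of 4250 bases. It rose by 0.29 on the log2 scale (adjusted p = 0.0461 by limma). That call was lost on the TPM scale (0.19) and in 5 of the 6 fits that left out 1 library. The others were RPL10P16 (89 bases shared with ENSG00000269242), RPL13AP7 (48 with ENSG00000222042), RPL21P75 (158 with ENSG00000243004), RPL23AP42 (217 with ENSG00000269888), RPL23AP53 (95 with ZNF596), RPL26P30 (40 with ENSG00000290075), RPL38P4 (64 with ENSG00000248839) and RPSAP19 (221 with LINC01709). Of these, RPL10P16, RPL26P30 and RPSAP19 rose, with log2 fold changes of 0.19, 0.72 and 0.58, the first of them not on the TPM scale or with quantile normalization.

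The letters TGTGTGT, complementary to bases 2 to 8 of the mimic as the study's methods give it, were searched on the strand of each member. They occurred in the exons of 1 member, RPL10AP6, which rose with a log2 fold change of 0.73 against 0.48 for RPL10A. The exons searched were those of GENCODE 44. For RPL32P3 and RPL23AP82 these hold 275 and 469 bases, against deposited lengths of 4504 and 4250 bases, so most of their counted sequence was not searched. Among 7999 single-exon processed pseudogenes of 78 to 1284 bases, 4.03% held them, and among the 71 members of that kind 1.41% did.

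Of 16 other translation genes tested 12 rose and none fell by limma (0 at an unadjusted p under 0.05, 0 by voom), with a median of 0.24, among them EEF2, the elongation factor for translocation, at 0.70 and EIF3F, a subunit of initiation factor 3, at 0.89. Of 29 pseudogenes of other large families 4 rose (13.8%) and 7 fell (24.1%), with a median of -0.02. Among all genes tested 29.1% rose and 30.5% fell. HMGB1P1 rose by 1.36, while HMGB1P5 and HMGB1P6 fell by 0.38 and 0.54. KRT8P3 fell by 0.72, while KRT8P12 rose by 0.88 from a CTR mean of 0.73 FPKM, under the level limit. Their parent KRT8 lay at 848 FPKM in CTR and 552 FPKM in miR-8485. EEF1A1P5, a copy of the elongation factor EEF1A1, lay at 267 FPKM in CTR and 270 FPKM in miR-8485, with a log2 fold change of 0.01. EEF1A1 itself had 0.09 and did not pass either (adjusted p = 0.12 by limma).

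The members just inside the limit of 1 FPKM were RPL23AP53 (1.06), RPS3AP5 (1.09) and RPSAP9 (1.17 FPKM), and those just outside were RPS29P17 (0.996), RPL9P29 (0.992) and RPL23P8 (0.880 FPKM). In a fit without the filter on low values, 4 of the 354 genes above 0 and below 1 FPKM rose and 3 fell.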

How the data were processed

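RNA from HCT116 cells was sequenced in 6 libraries, 3 CTR and 3 miR-8485. Per the labels and the methods, the authors trimmed reads, mapped them to hg38 with HISAT2 2.0.5 and counted them per gene with featureCounts 1.5.0-p3, and they deposited FPKM values, which divide by gene length and library total. The handling of multiply mapped fragments, the strand setting and the annotation release are not given in the sources used here. Members and lists were chosen with earlier results of these data known.

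The 12349 genes that reached a mean FPKM of 1 were compared on log2(FPKM + 0.1) with limma 3.58.1 (R 4.3.3), with a variance trend and Benjamini-Hochberg adjustment. This log-scale fold change understates changes of low genes. Pairs were tested on the member minus parent difference over 273 pairs. Since the values were whole multiples of 1 fragment (100.0% within 0.05), fragments were recovered and fitted with limma-voom as an alternative. The count model of the study was not used, because the deposited values are FPKM, and it was not run on the recovered fragments. In simulated libraries with 2-fold changes, 94.1% of 222 changed genes (8 false calls in 12412 genes) and 35 of 41 changed pairs were called. The simulation gave every gene the same small dispersion and changed far fewer genes than were called in the data. Its shares therefore do not carry over to members whose replicates spread more widely, and they do not measure how many real pair differences were missed. Replicates are those of the labels. The limma p-values set the difference between groups against the spread between replicates, which limma moderates across genes.

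Loci were read from hg38 at the deposited coordinates (75 of 81 as in GENCODE 44) and aligned locally (Biopython 1.88) with the parent's coding sequence. The named members are the 10 most abundant, up to 5 with the largest rise and fall, those past the pair test, those beside the level limit and those sharing exons, of which 1 is counted but not reported here by name. Alternatives were the pseudocount, filter, scaling, trend, voom, replicate block, threshold and leaving out each library.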

Additional observations from a re-analysis of the deposited data

How the results depend on the processing

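The count of members called higher stayed within 1.5 times the main count of 42 under every alternative, from 29 at an adjusted p under 0.01 and 31 on the TPM scale to 50 with the replicate block, and leaving out each library in turn gave 34 to 51. The median log2 fold change of the members stayed above 0 under each, at 0.33 to 0.53. The count of members called lower was 1 or 0. It was 0 without a filter, with a minimum of 5 FPKM, by voom (with the filter and, in a fit added after seeing the data, without it), with the block and at an adjusted p under 0.01, and 0 to 1 when single libraries were left out. Member pairs called above the parent numbered 1 in the main fit, 3 without a filter, 2 with quantile normalization, 5 by voom, 6 by voom without a filter, 2 with the replicate block, 0 at an adjusted p under 0.01 and 0 to 1 when single libraries were left out. Pairs below the parent numbered 0 in the main fit, 1 with a pseudocount of 1, with quantile normalization, without a variance trend and by voom without a filter, and 2 by voom. The median difference between member and parent was 0.18 with quantile normalization, against 0.0052, and the cause was not tested. Among the named members, RPL21P75 reversed without CTR replicate 1 (0.13, range -0.21 to 0.13 over single libraries), as did RPL23AP42 without CTR replicate 2 or 3 or miR-8485 replicate 3 (range -0.21 to 0.076), and neither was called in any of these fits. Of the 481 comparisons of a named result with an alternative, those of the RPL10P13 minus RPL10 difference included, 448 kept direction and call.

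The replicate numbers were not taken as a pairing, since the deviations of same-numbered libraries had correlations of 0.067, 0.033 and -0.064, and the block raised the members called higher from 42 to 50. Depth limits many members, since 33 had under 50 fragments per library. Recovered fragments carry counting error and the variation between replicates, and they depend on how fragments with several matches were assigned. The identity and position of a member rest on hg38 and GENCODE 44, whose coordinates differ from the deposited ones for a few members. Identity to the longest coding sequence in place of the MANE Select one was lower by over 1 percentage point for 9 members.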

Other observations

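Outside the ribosomal protein families, 2 of the 192 other pseudogene and parent pairs changed differently in the test over all 273 pairs. HMGB1P1, a copy of the gene for the chromatin protein HMGB1, changed by 1.92 more than its parent on the log2 scale (SE 0.20, adjusted p = 0.00907 by limma), and HMGA1P5, a copy of HMGA1, by 3.90 more (SE 0.52, adjusted p = 0.0245 by limma). Among ribosomal protein pseudogenes inside hosts under the filter on low values, RPL39P36 lies on the strand of ZNF765, which was at 0.468 FPKM in CTR and 1.02 FPKM in miR-8485, while RPL39P36 had a log2 fold change of -0.47 from a mean of 5 fragments per library.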
